A study of Mus musculus with 36 samples.

Results

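Lungs of Notch4-/- mice taken after 48 hr of ozone were compared with lungs of Notch4-/- mice kept in filtered air. These are 6 of the 36 arrays of the series, chosen by their sample titles, with 3 mice in each group. The Notch4-/- mice were males of 7 to 13 weeks that carry the Notch4tm1Grid allele, a targeted deletion present in every cell from conception. Ozone was given at 0.3 ppm without pause to the whole body, and air mice sat in a separate chamber run in parallel. RNA came from the left lung, and the labels give no length of stay for the air mice. Notch4-/- mice after 6 and 24 hr of ozone, and Notch3-/- (Notch3tm1Grid) and wild-type (WT; B6129SF1/J) mice after 48 hr of ozone or in air, were used for comparison, again with 3 mice per group. The WT mice are first-generation hybrids bought as a line of their own, so deletion and strain background cannot be told apart between genotypes. Each genotype has 1 air group, which serves for every exposure time.

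Notch receptors are membrane proteins that are cut when a ligand on a neighbouring cell binds them, and the released inner part acts with RBPJ on target genes such as *Hes1*. NOTCH4 is known chiefly from endothelial cells. Inhaled ozone reacts with the lining fluid and the membranes of airway cells, and the lung answers with chemokines that draw neutrophils, with acute phase proteins and, over the following days, with division of cells that replace the injured epithelium. In whole lung RNA, fewer cells of a type and less RNA per cell cannot be told apart.

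Values are log2 levels as deposited, each relative to the median of its probe set over all 36 arrays, so 0 is that median and a difference of 1 is a doubling. A change is the mean of the 3 ozone mice minus the mean of the 3 air mice on the log2 scale, and a probe set or gene was called when its adjusted p was under 0.05 (limma across all 36 arrays, Benjamini-Hochberg over 45037 probe sets). The deleted gene was read first. The *Notch4* probe set with the widest range stood at -3.79, -3.42 and -4.05 in the ozone mice, against -1.97, -1.40 and -3.69 in the air mice, a called change of -1.41 ± 0.31 (adjusted p = 0.014). In WT air mice it stood at 0.34, 0.22 and 0.24. In these terms air replicates 1 and 2 lay between the other Notch4-/- mice and WT mice. Some of the list counts, medians and calls that turn on them are also given without them. A second *Notch4* probe set showed a smaller drop in all Notch4-/- groups and a further one was near 0 in every group. Among the 6 arrays, ozone replicate 2 had the widest spread of values (SD over probe sets 0.426) and air replicate 2 the narrowest (0.164).

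After 48 hr of ozone, 790 probe sets were called, 668 higher and 122 lower than in air, which is 1.75% of those tested. With 1 probe set standing for each gene, 376 of 18193 genes were higher (2.07%) and 62 were lower (0.341%), and the median change over all genes was 0.03. Of the called genes, 95 were higher by at least 1 on the log2 scale and 9 were lower by as much. The values of the 3 ozone and 3 air mice did not overlap in 774 of the 790 called probe sets, and in 14.7% of all probe sets. The count moved with single mice. It was 462 without ozone replicate 1, 473 without ozone replicate 2, 418 without air replicate 1 and 216 without air replicate 3, and 90 genes, 78 higher and 12 lower, were called in the full set and without each of the 6 mice in turn. It was 884 with air replicate 3 as the lone air mouse, whose spread is then taken from the other groups. Fitted on these 6 arrays alone, no probe set was called, with 3813 at an unadjusted p under 0.05.

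The largest rise that held without each mouse in turn was that of *Tshb*, the beta chain of thyroid-stimulating hormone, a pituitary hormone. It stood at 1.95, 2.30 and 1.63 in the ozone mice, against -1.83, -0.84 and -1.81 in the air mice. The change was 3.45 ± 0.32 (SE), or 10.9-fold, with an adjusted p of 8.8e-07 (limma). The *Tshb* level was low in air and at 6 hr, mixed at 24 hr and high in all 3 mice at 48 hr. Of the 10 measured genes of a pituitary and thyroid list, only *Tshb* and *Slc26a4* were called. *Cga*, which encodes the alpha chain that pairs with TSH beta, changed by 0.19 (adjusted p = 0.47), *Prl* by 0.06 (0.90) and *Tg*, thyroglobulin, by 0.07 (0.90). *Slc26a4* encodes pendrin, an anion exchanger of airway epithelium as well as thyroid. It rose by 2.08 ± 0.34, with 1.69, 1.66 and 1.56 in ozone mice and -0.69, 0.22 and -0.86 in air mice, and held without each mouse in turn.

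**Figure D1:**
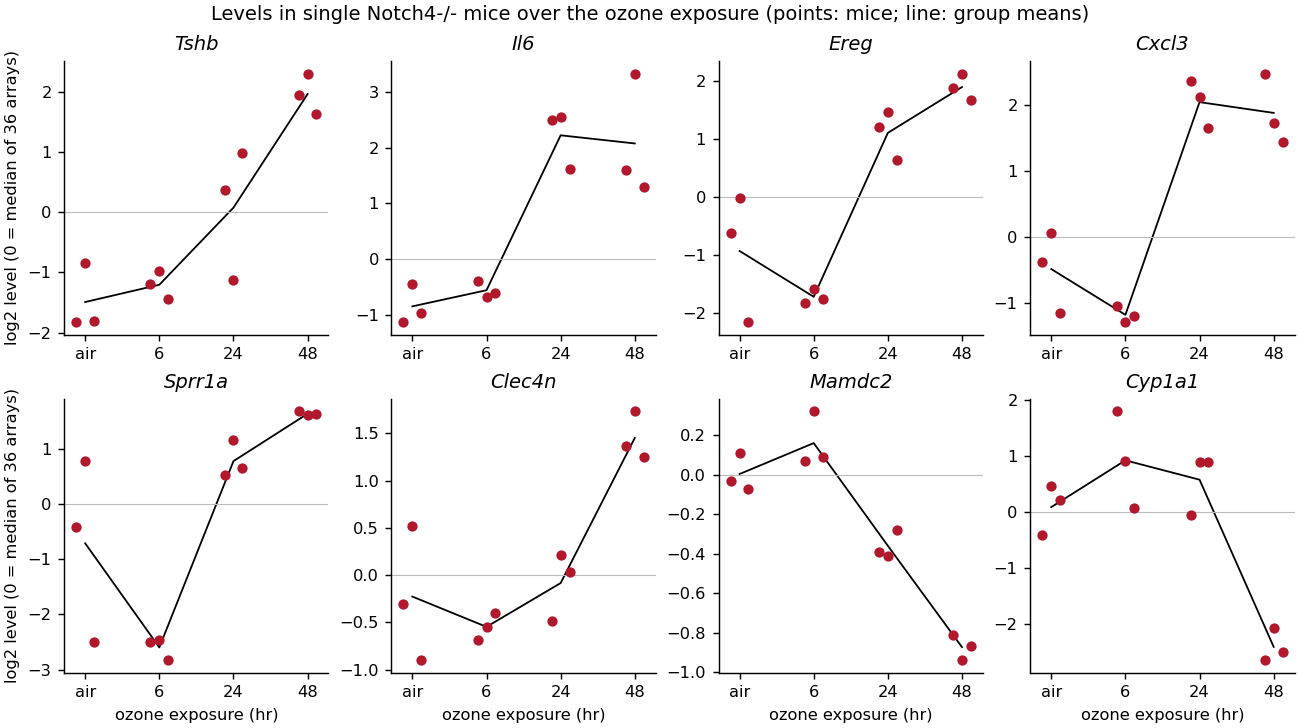
Log2 level (y axis, 0 is the median of 36 arrays) of 8 genes in single Notch4-/- mice in air and after 6, 24 and 48 hr of ozone (x axis). Points are mice and the line joins group means. All 3 mice at 48 hr lay above all mice at 24 hr for *Tshb* and *Clec4n*, while *Il6* and *Cxcl3* had overlapping levels at these times, and *Mamdc2* and *Cyp1a1* were lowest at 48 hr.

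Acute phase genes were higher. Of 23 measured, 8 rose and none fell, with a median change of 0.71. Over all genes 2.07% were higher and 0.341% lower, the shares that stand beside every list count against air. *Il6*, the cytokine that drives the acute phase response, stood at 1.60, 3.33 and 1.29 in ozone mice and -1.14, -0.45 and -0.97 in air mice. It rose by 2.93 ± 0.39 (adjusted p = 9.4e-05). *Saa3*, an inducible serum amyloid A, stood at 0.78, 1.48 and 0.81 in ozone mice and -1.11, -0.33 and -3.10 in air mice. Its rise was 2.54 ± 0.47, and air replicate 3 lay below the other air mice. *Lcn2*, which withholds iron from bacteria, rose by 1.48 and *Socs3*, the feedback inhibitor of IL-6 signaling, by 1.26 ± 0.15 (adjusted p = 1.2e-05). *Socs3* had 0.72, 0.76 and 0.67 in ozone mice and -0.50, -0.26 and -0.88 in air mice, with little spread among ozone mice. *Orm1*, orosomucoid, changed by 2.16 ± 0.78 and was not called (adjusted p = 0.19). *Il6*, *Saa3*, *Lcn2* and *Socs3* held without each mouse in turn, and 5 acute phase genes were called without air replicate 3.

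Chemokines rose as well, 8 of 31 and none lower, with a median of 0.55. *Cxcl3*, a neutrophil attractant, stood at 2.48, 1.73 and 1.44 in ozone mice and -0.37, 0.07 and -1.15 in air mice, a rise of 2.37 ± 0.32 (adjusted p = 0.00012). *Cxcl1* and *Cxcl2*, of the same family, rose by 1.38 ± 0.36 (adjusted p = 0.046) and 1.22 ± 0.22 (0.0029). The *Cxcl1* call was lost without any 1 of the 6 mice (adjusted p of 0.053 to 0.22), and that of *Cxcl2* held. *Ccl17*, which draws T helper cells, had 1.26, 1.11 and 1.05 in ozone mice and -0.50, 0.09 and -0.57 in air mice, and rose by 1.46 ± 0.18. *Cxcl13*, the B cell attractant of lymphoid follicles, had 1.51, 3.38 and 1.09 in ozone mice, against 0.12, 0.26 and -0.44 in air mice. Its rise of 2.01 ± 0.37 held without ozone replicate 2, its highest mouse. *Ccl2*, a monocyte attractant, rose by 1.19 and lost its call without ozone replicate 2 (adjusted p = 0.078) or air replicate 3 (0.087). *Cxcl5* changed by 0.86 ± 0.59 and was not called. Without ozone replicate 1, ozone replicate 2 or air replicate 1, 5 chemokines were called, and 4 without air replicate 3.

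The promoters of *Cxcl3*, *Cxcl1*, *Cxcl2* and *Il6* are shown because these genes rose together and each holds the letters of an NF-kB site close to its start. NF-kB is the factor through which Toll-like receptors and cytokines switch on such genes. The stretches are the 120 bases before the RefSeq start on the plus strand of build GRCm38.p6, at chr5:90785981-90786100, chr5:90891125-90891244, chr5:90903779-90903898 and chr5:30012994-30013113. The 3 *Cxcl* genes are neighbours on chromosome 5. Capitals mark GGG, any 3 bases and TTCC on either strand. Matches may overlap, so a longer run in capitals can hold 2 of them, 1 on each strand.
Cxcl3: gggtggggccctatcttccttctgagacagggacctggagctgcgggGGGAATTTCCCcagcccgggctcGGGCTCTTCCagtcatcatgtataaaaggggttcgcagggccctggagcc
Cxcl1: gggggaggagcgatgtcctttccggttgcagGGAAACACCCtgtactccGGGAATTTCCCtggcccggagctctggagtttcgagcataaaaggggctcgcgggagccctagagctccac
Cxcl2: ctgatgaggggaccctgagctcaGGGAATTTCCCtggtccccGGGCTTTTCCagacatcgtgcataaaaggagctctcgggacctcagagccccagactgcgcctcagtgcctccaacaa
Il6: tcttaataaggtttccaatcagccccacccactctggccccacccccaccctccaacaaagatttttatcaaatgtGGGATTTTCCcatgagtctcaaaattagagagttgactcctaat
The letters begin at -73, -72 and -50 from the start in *Cxcl3*, at -89, -71 and -70 in *Cxcl1*, at -97, -96 and -78 in *Cxcl2* and at -44 in *Il6*. The full promoters of the table run from upstream of the start to just past it. The same letters are found in 5.56% of all 32851 of them. By gene, the share was 6.83% of 14368 measured genes, 9.86% of 294 called higher and 8.16% of 49 called lower. It was 11.3% of the 71 called higher by at least 1 on the log2 scale. Among those 71, letters of the factors C/EBP and AP-1 were found in 28.2% and 19.7%, against 10.8% and 7.5% of measured genes. Letters of C/EBP were also found in 18.4% of the genes called lower. Of the other letters looked for, some were rarer among the 71 than among measured genes. Examples are the metal response element (52.1% against 61.5%) and the E-box (7.04% against 10.3%). These shares were not tested, and the genes shown were chosen in part for holding the letters. The matches are of letters and are not measured sites.

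Other cytokine genes followed in smaller steps. Of 36 genes for IL-6, IL-1 and TNF family cytokines, their receptors and feedback, 8 rose and none fell (median 0.33). The count was 4 without ozone replicate 1, air replicate 1 or air replicate 3, and 5 without ozone replicate 3. *Il33*, an alarmin held in alveolar and airway cells, had 0.80, 0.96 and 0.75 in ozone mice and -0.22, -0.10 and 0.01 in air mice. It rose by 0.94 ± 0.19 (adjusted p = 0.0060). *Lif* and *Osmr*, of the IL-6 family, rose by 0.92 and 0.68, and *Il1rn*, the IL-1 receptor antagonist, by 0.78. *Tnf* stood at -0.12, 0.46 and 0.47 in ozone mice and 0.07, 0.31 and -0.30 in air mice. The groups overlapped and the change of 0.24 ± 0.18 was not called (adjusted p = 0.63). Of 26 Toll-like receptor genes and adaptors, *Tlr2* rose by 1.0 ± 0.15 and *Myd88*, the shared adaptor, by 0.60 ± 0.11, of which *Tlr2* alone was called without air replicate 3. *Traf6*, next in that chain, changed by 0.37 on the probe set counted (adjusted p = 0.22). Its other probe sets changed by 0.04, -0.02, -0.14 and 0.10, and none was called.

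Genes of cell division had the highest list median. Of 31 genes of mitosis and cytokinesis, 11 rose and none fell, with a median change of 1.01, against 2.07% of all genes higher. *Nuf2*, of the kinetochore, stood at 2.45, 1.96 and 2.20 in ozone mice and 1.05, 1.12 and -0.25 in air mice, and rose by 1.56 ± 0.28 (adjusted p = 0.0029). *Aurkb*, a mitotic kinase, rose by 1.21 ± 0.21, with 1.16, 1.06 and 1.31 in ozone mice and 0.16, 0.38 and -0.65 in air mice. *Ccnb2*, cyclin B2, rose by 1.29 and lost its call without ozone replicate 1 (adjusted p = 0.071) or air replicate 3 (0.17). *Cdk1*, its kinase, changed by 1.34 ± 0.36 (adjusted p = 0.052) and *Birc5*, survivin, by 1.46 ± 0.44 (0.091), and neither was called. Of 28 DNA replication genes, 7 rose and none fell (median 0.50), among them *Tk1*, thymidine kinase, by 1.23 and *Gins2*, of the replicative helicase, by 1.18.

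The air mice differed from each other in these lists. The median level of the mitosis list was 1.70, 0.93 and 1.66 in the ozone mice, against 0.67, 0.93 and -0.26 in the Notch4-/- air mice. In Notch3-/- air mice it was -0.46, -0.56 and 0.04, and in WT air mice -0.81, -0.21 and -0.21. Air replicates 1 and 2, those of raised *Notch4* signal, lay above all other air mice, and air replicate 2 was as high as ozone replicate 2. With air replicate 3 as the lone air mouse, 23 of 31 mitosis genes and 10 of 28 replication genes were called. Without air replicate 2, 20 mitosis genes were called. Without air replicate 3, 3 mitosis genes and 0 replication genes were called. Without ozone replicate 1 there were 3 mitosis and 4 replication genes, without ozone replicate 3 there were 4 mitosis genes, and without ozone replicate 2 there was 1 replication gene.

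The same order of the air mice appeared in genes chosen on the changes of the other genotypes, in the fit that takes its error from all 36 arrays. At 48 hr, 454 probe sets were called higher than air in both WT and Notch3-/- mice. Of the 31 mitosis genes, 26 were called higher in WT mice and 26 in Notch3-/- mice. The 454 thus share genes with the mitosis list and are no separate observation. The median level of the 454 was 0.75, 0.62 and 0.66 in the Notch4-/- ozone mice, against 0.02, 0.18 and -0.30 in the Notch4-/- air mice. In Notch3-/- air mice it was -0.40, -0.39 and -0.09, and in WT air mice -0.55, -0.24 and -0.25. All 454 changed upward in Notch4-/- mice, with a median change of 0.74, against 0.99 in Notch3-/- and 0.96 in WT mice. The choice itself raises the changes and lowers the air levels of the genotypes it was made on, so these are descriptions and no test of a difference between genotypes. Called higher in Notch4-/- mice were 251 of the 454 (55.3%), which is 37.6% of the 668 probe sets called higher there, against 1.48% of all probe sets. With air replicate 3 as the lone air mouse, the median change was 1.08 and 287 were called. The 48 probe sets lower in both other genotypes had a median level of -0.46, -0.48 and -0.47 in the ozone mice and -0.01, 0.00 and -0.02 in the air mice, and 22 of them were called lower (45.8%), which is 18% of the 122 called lower there, against 0.271% of all probe sets. With air replicate 3 as the lone air mouse, 11 of the 48 were called. For these the 3 Notch4-/- air mice were at about the same level, all below the Notch3-/- air mice at 0.34, 0.24 and 0.27 and the WT air mice at 0.28, 0.25 and 0.18, whose air levels the choice raises. Whether these 2 mice differ in genotype, exposure or handling was not tested.

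**Figure D2:**
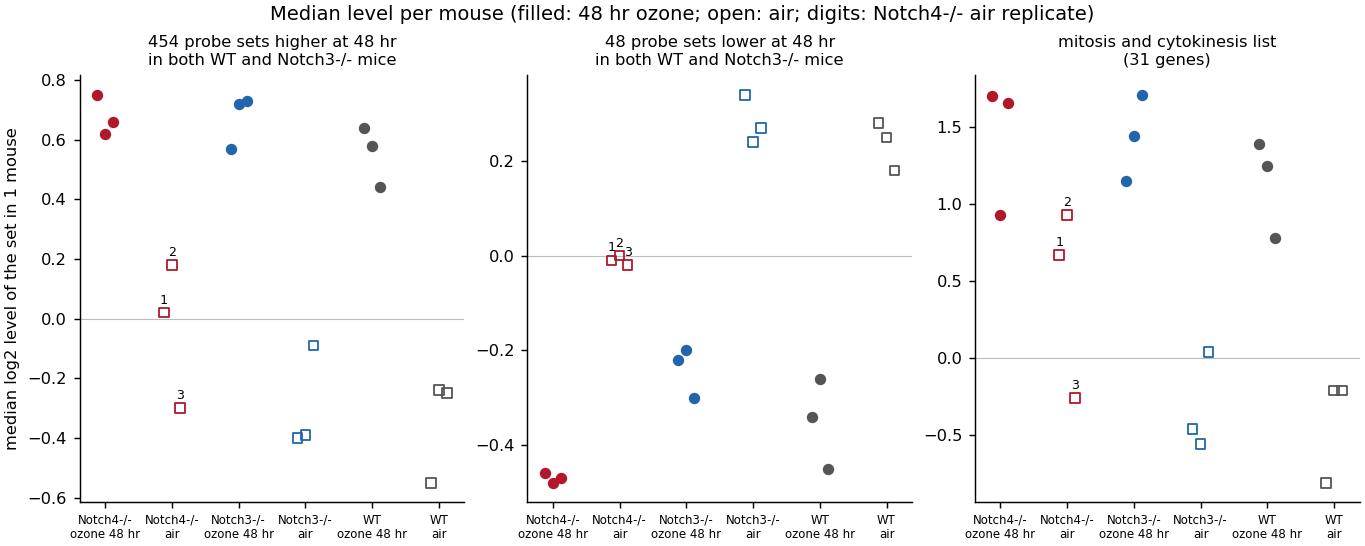
Median log2 level (y axis) per mouse of the 454 probe sets higher and the 48 lower at 48 hr in both WT and Notch3-/- mice, and of the 31 genes of the mitosis list, by genotype and exposure (x axis). Filled points are 48 hr ozone mice, open squares air mice, and digits number the Notch4-/- air replicates. Air replicates 1 and 2 lay above the other air mice for the 454 probe sets and the mitosis list and not for the 48.

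Genes of epithelial growth and repair were among the largest single changes. *Ereg*, epiregulin, a ligand of the EGF receptor, stood at 1.88, 2.13 and 1.68 in ozone mice and -0.62, -0.01 and -2.16 in air mice. It rose by 2.83 ± 0.33 (adjusted p = 1.8e-05). Of 18 EGF receptor and ligand genes, only *Ereg* and *Hbegf* (0.84 ± 0.20) were called. The call of *Hbegf* was lost without ozone replicate 1 (adjusted p = 0.12), air replicate 1 (0.090) or air replicate 3 (0.14), which left *Ereg* alone. *Sprr1a*, a cornified envelope protein of squamous and injured epithelium, had 1.68, 1.61 and 1.63 in ozone mice and -0.42, 0.79 and -2.50 in air mice. The ozone mice were alike and the air mice spread over more than 3 log2 units, and the rise of 2.35 ± 0.46 lost its call without air replicate 3 (adjusted p = 0.065). *Tgm1*, the transglutaminase that crosslinks the envelope, rose by 1.46 ± 0.23 and the simple epithelial keratins *Krt19*, *Krt8* and *Krt18* by 0.72, 0.67 and 0.65. In all, 5 of 25 genes of that list rose and none fell, with a median of 0.06. Without ozone replicate 1 the count was 3, and without air replicate 3 it was 1, *Tgm1*.

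Matrix remodeling genes changed in both directions, 6 of 31 higher and 1 lower (median 0.12). *Timp1*, an inhibitor of metalloproteinases, had 1.34, 1.40 and 0.87 in ozone mice and -0.80, 0.13 and -2.33 in air mice, and rose by 2.21 ± 0.38. *Mmp12*, macrophage elastase, rose by 1.27 ± 0.22, with 1.03, 1.0 and 1.09 in ozone mice and -0.15, 0.08 and -0.61 in air mice. *Has2*, which makes hyaluronan, rose by 1.23 and *Adamts4*, an aggrecanase, by 1.51, while *Thbs3*, a thrombospondin, fell by 1.14. Without air replicate 3, 4 of the 31 were called. None of 27 collagen chain genes was called against air, where 2.07% of all genes were higher and 0.341% lower. Their median change was -0.06, and 0.45 without air replicates 1 and 2. In the coagulation list, 4 of 19 genes rose and 2 fell. *F3*, tissue factor, and *F7*, the factor it binds, rose by 0.94 and 0.90, and *Thbd*, the anticoagulant thrombomodulin, fell by 0.47. Without ozone replicate 2, 3 of the 19 were called, and 2 without air replicate 3. *Serpinb2*, an inhibitor of plasminogen activators, had 1.62, 3.66 and 1.60 in ozone mice and -0.20, -0.34 and -0.20 in air mice. Its change of 2.54 ± 0.55 lost its call without ozone replicate 2 (adjusted p = 0.11), and likewise without air replicate 3 (0.059).

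Macrophage genes of scavenging and alternative activation were higher in 6 of 21 cases and lower in none (median 0.32). *Arg1*, arginase, had 1.78, 0.99 and 1.65 in ozone mice and 0.02, 0.51 and 0.39 in air mice, and rose by 1.17 ± 0.25. *Msr1* and *Marco*, scavenger receptors, rose by 1.02 and 0.84 and *Il4ra*, a receptor chain for IL-4 and IL-13, by 0.62. Of the 21, 3 were called without ozone replicate 1 or 2, 2 without air replicate 1, 1 without air replicate 3 and 3 without air replicates 1 and 2 together. Of 14 monocyte and macrophage markers, 1 was called, *Marco*, which is in both lists. Of 16 neutrophil markers, 2 were called, *Clec4e* (1.43 ± 0.26) and *Trem1* (0.75 ± 0.18), against 2.07% of all genes higher. The other probe sets of *Clec4e* (0.33), *Trem1* (0.38) and *Marco* (0.68) were not called. The median level of the neutrophil list was 0.15, 0.68 and 0.06 in ozone mice and 0.13, -0.09 and 0.29 in air mice, and the groups overlapped. On the probe sets counted, *Mt2*, metallothionein, was the 1 gene called of 27 for metal handling and antioxidant defence (2.07% of all genes higher). It rose by 1.63 ± 0.26, with 0.82, 0.85 and 0.92 in ozone mice and -0.69, -0.45 and -1.16 in air mice. The probe sets of *Gclc*, a NRF2 target of glutathione synthesis, fell on either side of the threshold. The one counted changed by 0.45 (adjusted p = 0.39), and the other, at 0.57, 0.51 and 0.42 in ozone mice and -0.38, 0.08 and -0.30 in air mice, rose by 0.70 ± 0.16 (0.017). A probe set other than the one counted was also called for *Tlr4*, *F10*, *Hmmr*, *Ccn1*, *Csf2rb*, *Lcp2* and *Mcm5*, all higher in ozone. The reverse held, among others, for *Lif*, *Osmr*, *Hbegf*, *Il4ra*, *Igfbp3* and *Zbtb38*, called on the probe set counted and on no other.

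**Figure D3:**
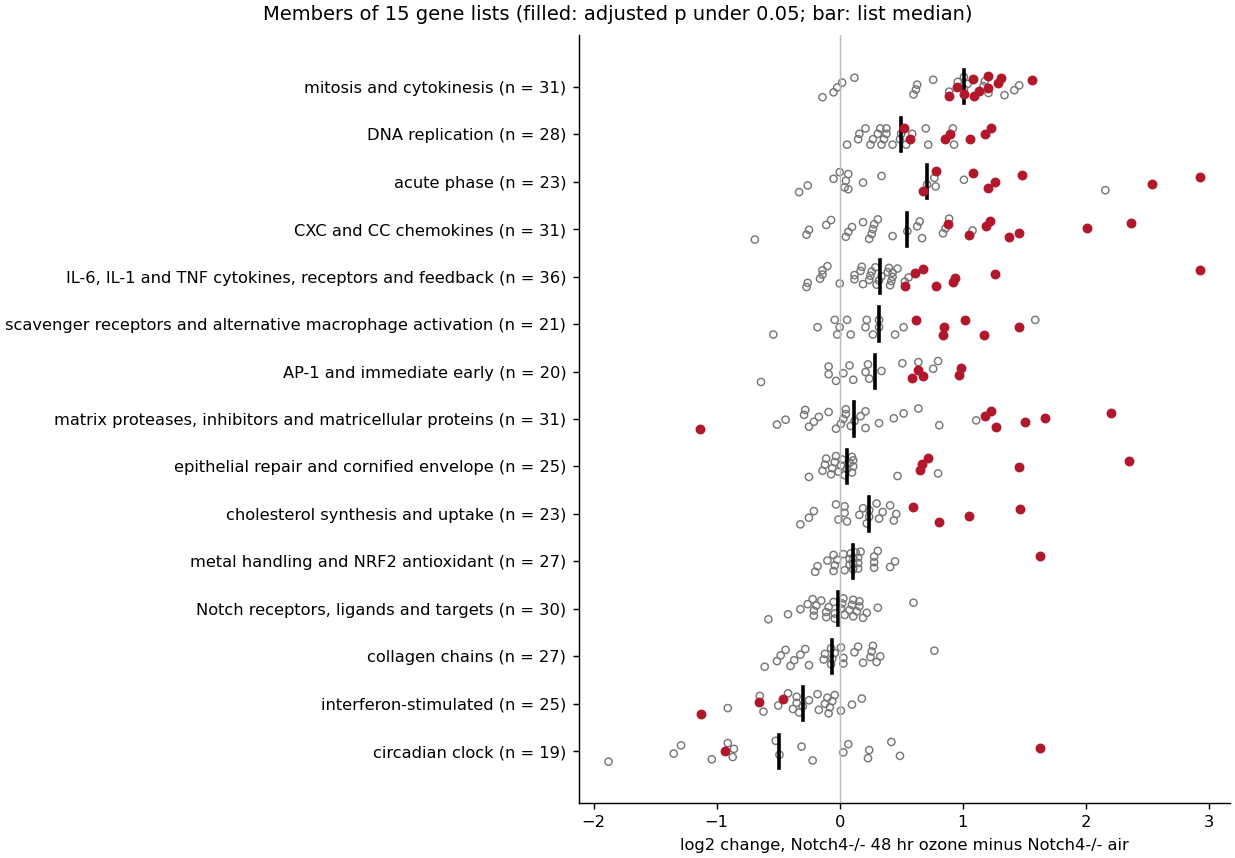
Log2 change, Notch4-/- 48 hr ozone minus Notch4-/- air (x axis), of each measured member of 15 gene lists (rows). Filled points are called genes, open points are not called, and bars are list medians. The medians run from 1.01 for mitosis to -0.49 for the circadian clock, with that of the Notch list at -0.01.

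Falls were fewer and smaller. *Cyp1a1*, the cytochrome P450 induced through the aryl hydrocarbon receptor, stood at -2.65, -2.08 and -2.50 in ozone mice and -0.41, 0.47 and 0.21 in air mice. It fell by 2.50, a 5.66-fold drop, with an SE of 0.59 and an adjusted p of 0.022, and the call was lost without any of 4 of the 6 mice, namely ozone replicates 1 and 3 and air replicates 2 and 3 (adjusted p of 0.058 to 0.10). *Ddc*, which makes dopamine and serotonin from their amino acid precursors, had -0.99, -1.20 and -1.25 in ozone mice and -0.08, -0.07 and 0.30 in air mice. It fell by 1.20 (SE 0.16, adjusted p = 8.9e-05), and its second probe set changed by 0.10 and was not called. *Mamdc2* had -0.81, -0.94 and -0.87 in ozone mice and -0.03, 0.11 and -0.07 in air mice, and fell by 0.88 (SE 0.10, adjusted p = 6.4e-06). Both *Ddc* and *Mamdc2* held without each mouse in turn, as did *Clec3b*, tetranectin (fell by 1.15), *Thbs3*, *Hpcal4* (fell by 1.14), *Nr1d1* (fell by 0.93), *Pgm5* (fell by 0.72) and *Zbtb38* (fell by 0.71). Of these, *Thbs3* (adjusted p = 0.054), *Hpcal4* (0.064), *Nr1d1* (0.075) and *Zbtb38* (0.19) were not called with air replicate 3 as the lone air mouse. *Igfbp3*, a carrier of insulin-like growth factors, fell by 0.99 and lost its call without ozone replicate 2 (adjusted p = 0.052), and likewise without ozone replicate 3 (0.063).

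Of 25 interferon-stimulated genes, 3 fell and none rose, with a median of -0.30, against 0.341% of all genes lower and 2.07% higher. These were *Oasl2* (fell by 1.13), *Ifit1* (fell by 0.66) and *Ifit2* (fell by 0.46), and 0 of the 25 were called without air replicate 1 and 1 without ozone replicate 2. The ozone and air mice overlapped for *Oasl2*. Among 19 clock genes, *Nr1d1*, a repressor of the clock loop, fell, and *Nfil3*, a factor that opposes *Dbp*, rose by 1.63 ± 0.32. The *Nfil3* call was lost without air replicate 3 (adjusted p = 0.078) and that of *Nr1d1* without air replicates 1 and 2 together (0.075). The list median was -0.49, and -0.18 without those 2 mice. *Dbp* stood at -1.42, -0.22 and -0.75 in ozone mice and 1.38, 0.40 and 1.48 in air mice, a change of -1.88 ± 0.57 that was not called (adjusted p = 0.095). *Per2* changed by -1.35 (adjusted p = 0.11). The hour at which lungs were taken was not given in the sources used here.

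Counted on 1 probe set per gene, which for *Notch4* is the one near 0 in every group, no member of the Notch list was called against air. The *Notch4* probe set of widest range was called lower, as given above, with air replicates 1 and 2 the high mice. Over 30 receptors, ligands, enzymes and targets, the median change was -0.01, with 15 above 0. *Notch1* stood at -0.15, -1.38 and 0.02 in ozone mice and 0.18, 0.34 and -0.29 in air mice. On this probe set ozone replicate 2 alone was low, and the change of -0.58 ± 0.41 was not called (adjusted p = 0.60). The other *Notch1* probe set was at -0.55, -1.06 and -0.59 in ozone mice and -0.01, 0.16 and -0.67 in air mice. Its change of -0.56 ± 0.23 was not called either (adjusted p = 0.27). *Notch2* changed by -0.11, and by -0.36 ± 0.15 on its other probe set, which was not called (adjusted p = 0.27). *Jag1* changed by 0.02, *Jag2* by -0.21 and *Dll1* by -0.42, and the target *Hes1* by -0.32 ± 0.16 (adjusted p = 0.42). *Notch3* changed by 0.04 against air. Against 6 hr it was lower, at 0.01, -0.16 and 0.00 at 48 hr and 0.31, 0.55 and 0.53 at 6 hr, a change of -0.51 ± 0.16 (adjusted p = 0.045). It was at 0.49, 0.56 and 0.75 at 24 hr, and the change against 24 hr was -0.65 (0.020). Neither was called without ozone 48 hr replicate 2.

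Within Notch4-/- mice, 48 hr was also set against the earlier exposures, so that the air mice enter only the error of the fit. Against 6 hr, 4030 probe sets were called (8.95%), 2128 higher and 1902 lower. Against 24 hr, 2197 were called (4.88%), 933 higher and 1264 lower. The count against 24 hr was 444 without ozone 48 hr replicate 2, 3986 without ozone 48 hr replicate 3, and 955 and 726 without ozone 24 hr replicates 2 and 3. That against 6 hr was 1974 and 2635 without ozone 6 hr replicates 1 and 3. Genes of cell division were higher at 48 hr. Of 31 mitosis genes, 26 were higher at 48 hr than at 6 hr and 21 were higher than at 24 hr, against 6.02% and 2.80% of all genes, and 26 and 25 without ozone 48 hr replicate 2. *Ccnb2* was at 0.51, 0.20 and 0.47 at 6 hr, at -0.25, 0.06 and -0.07 at 24 hr, and at 2.11, 1.79 and 2.02 at 48 hr. The 48 hr mice stood clear of both earlier groups. DNA replication genes were higher in 18 of 28 against 6 hr and 11 of 28 against 24 hr, 5 of them without ozone 48 hr replicate 2.

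Inflammatory genes went both ways between 24 and 48 hr. Of 31 chemokines 3 were higher and 2 lower at 48 hr, of 23 acute phase genes none was higher and 2 were lower, and of the 21 macrophage genes of scavenging and alternative activation 4 were higher and none lower, against 2.80% higher and 2.91% lower of all genes. Without ozone 48 hr replicate 2 these were 1 and 0, 0 and 1, and 2 and 0, each higher and lower. *Cxcl3* was at -1.04, -1.29 and -1.20 at 6 hr, at 2.36, 2.13 and 1.65 at 24 hr, and at 2.48, 1.73 and 1.44 at 48 hr. Its level was already high at 24 hr, and the change from 24 to 48 hr was -0.16 (adjusted p = 0.84). *Il6* and *Timp1* likewise changed by -0.15 and -0.11 between 24 and 48 hr. *Saa1*, another serum amyloid A, was at 0.30, 0.74 and 0.95 at 48 hr and 1.42, 2.82 and 1.87 at 24 hr, a fall with a change of -1.37 (adjusted p = 0.0060). *Cxcl5*, with 0.59, -0.02 and 0.02 at 48 hr and 3.84, 2.56 and 1.42 at 24 hr, was lower too, with a change of -2.41 (0.018). The *Cxcl5* call was lost without ozone 48 hr replicate 2. *Clec4n*, the fungal receptor dectin-2, was at 1.37, 1.73 and 1.25 at 48 hr and at -0.49, 0.21 and 0.03 at 24 hr, and rose by 1.54 (0.0069) over that interval.

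Some lists were lower at 48 hr than at earlier times. Interferon-stimulated genes were lower than at 6 hr in 10 of 25, against 3.95% of all genes, and in 10 of 25 without ozone 48 hr replicate 2. Clock genes were lower than at 6 hr in 10 of 19, 7 of them without ozone 48 hr replicate 2, with *Per1* at -2.06, -0.47 and -1.49 at 48 hr and 1.24, 1.32 and 1.33 at 6 hr. Endothelial markers were lower than at 24 hr in 10 of 21, against 2.91% of all genes, and in 2 of 21 without ozone 48 hr replicate 2. *Pecam1*, an endothelial junction protein, had -0.21, -1.14 and -0.83 at 48 hr, against -0.11, 0.18 and -0.01 in air. Its change against air of -0.75 ± 0.22 was not called (adjusted p = 0.072). The median level of the adipose marker list was -0.27, 3.28 and -0.03 in ozone mice and 0.26, 0.26 and 0.01 in air mice, so ozone replicate 2 alone was high. In that mouse *Ucp1*, the uncoupling protein of brown fat, was at 6.01 and *Adipoq* at 4.01. The part of fat tissue in results that rest on this mouse was not tested beyond leaving it out.

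The response at 48 hr was then set against that of the other genotypes, each over its own air mice. Between Notch4-/- and WT responses 1 probe set of 45037 was called (0.00222%), and between Notch4-/- and Notch3-/- responses none (0%), with 1784 at an unadjusted p under 0.05. Against WT the count was 7 without Notch4-/- ozone replicate 2 and 2 without Notch4-/- air replicate 2 or 3. Against Notch3-/- it was 6 without Notch4-/- ozone replicate 2, 2 without Notch4-/- air replicate 3 and 1 without Notch3-/- air replicate 1. The called gene was *Psca*, prostate stem cell antigen, a surface protein of epithelia. In Notch4-/- mice it was not called, with -0.14, -0.09 and 0.03 in ozone and -0.34, 0.06 and -0.12 in air. In WT mice it stood at 3.11, 3.10 and 2.92 in ozone and 1.48, 1.65 and 1.20 in air. The responses differed by -1.53 ± 0.21 (adjusted p = 0.0032). Notch3-/- mice were also near 0 in both groups, with -0.08, 0.01 and 0.06 in ozone and 0.15, -0.01 and 0.00 in air. The level of *Psca* thus separated both knockout lines from the WT hybrids in air as well.

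*Tshb* rose by 3.45 in Notch4-/- mice, by 1.30 in Notch3-/- mice (adjusted p = 0.022) and by 0.97 in WT mice (0.15, not called). The Notch4-/- response exceeded the Notch3-/- response by 2.15 ± 0.45 and the WT response by 2.48 ± 0.45, and neither difference passed over all probe sets (adjusted p = 0.64 and 0.16). Air levels differed too, with -1.56, -1.73 and -1.44 in Notch3-/- and 0.12, 0.14 and 0.35 in WT air mice. *Cxcl13* rose in Notch4-/- mice and changed by 0.78 (adjusted p = 0.35) in Notch3-/- and by -0.13 (0.97) in WT mice. Its responses in Notch4-/- and WT mice differed by 2.14 ± 0.52 and did not pass (adjusted p = 1.0). *Sprr1a* and *Timp1* rose less in Notch4-/- than in WT mice, by differences of -1.55 ± 0.66 and -1.38 ± 0.53, which did not pass either. Mitosis genes were called higher in 11 of 31 in Notch4-/-, 26 in Notch3-/- and 26 in WT mice, where 2.76% and 1.84% of all genes were higher. None of these genes passed the test of the difference, and without Notch4-/- air replicates 1 and 2 the Notch4-/- count was 23.

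**Figure D4:**
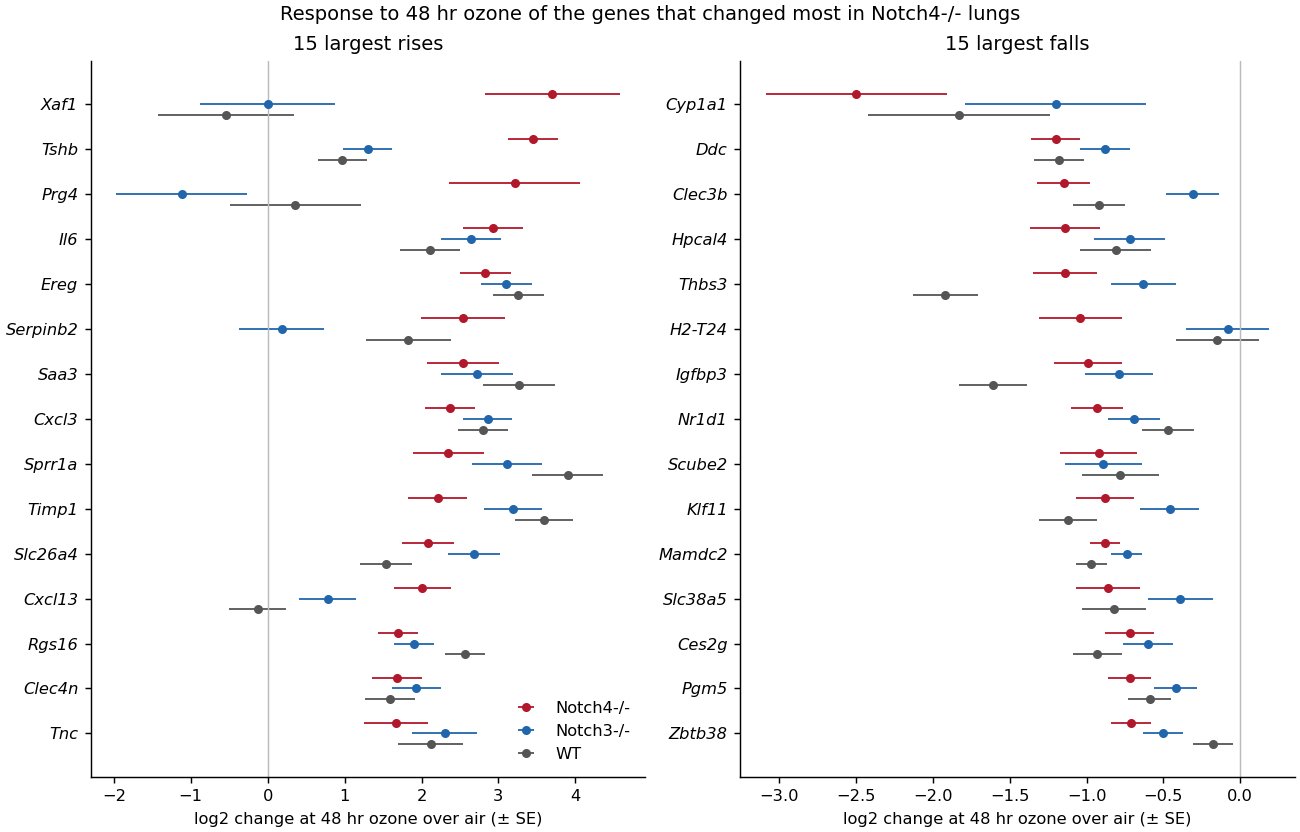
Log2 change at 48 hr ozone over air (x axis, bars are SE) in Notch4-/-, Notch3-/- and WT mice (3 mice per group) of the genes with the 15 largest rises and 15 largest falls in Notch4-/- mice (rows). The genes were picked on the Notch4-/- values. *Il6*, *Ereg*, *Saa3* and *Cxcl3* rose by more than 2 in all 3 genotypes, while *Xaf1*, *Prg4* and *Cxcl13* were below a rise of 1 in Notch3-/- and WT mice.

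The largest change of all, that of *Xaf1*, an interferon-inducible gene on chromosome 11, rested on 2 mice. One probe set stood at 5.14, -0.01 and 4.85 in ozone mice and -0.31, -0.61 and -0.20 in air mice, a change of 3.70 ± 0.88 (adjusted p = 0.024) that was not called without ozone replicate 1 (0.16), ozone replicate 3 (0.12) or any air mouse (0.062 to 0.087). In Notch4-/- mice at 24 hr it was at -0.17, 4.66 and -0.21, in Notch3-/- air mice at -0.08, -0.25 and -0.16 and in WT air mice at 4.61, 4.53 and 4.55. The levels were thus either near 0 or above 3, in air and in ozone alike. The other probe set of the same gene ran the other way, at -2.24, -0.06 and -2.92 in ozone mice and 0.71, 0.23 and 0.80 in air mice (change -2.32 ± 0.38, adjusted p = 0.0012). *Xaf1* is the 1 gene with called probe sets in both directions. Among other genes of chromosome 11, chosen after their values were seen, *2610507I01Rik* was at -1.72, -0.23 and -1.86 in ozone mice and 0.53, 0.19 and 1.12 in air mice, and *Tnfsf13os* was at -2.06, 0.53 and -2.33 in ozone mice and 0.33, 0.12 and 0.14 in air mice. The call of *2610507I01Rik* was lost without ozone replicate 1 (adjusted p = 0.053) or air replicate 3 (0.078), and that of *Tnfsf13os* without any mouse but ozone replicate 2 (0.074 to 0.23).

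**Figure D5:**
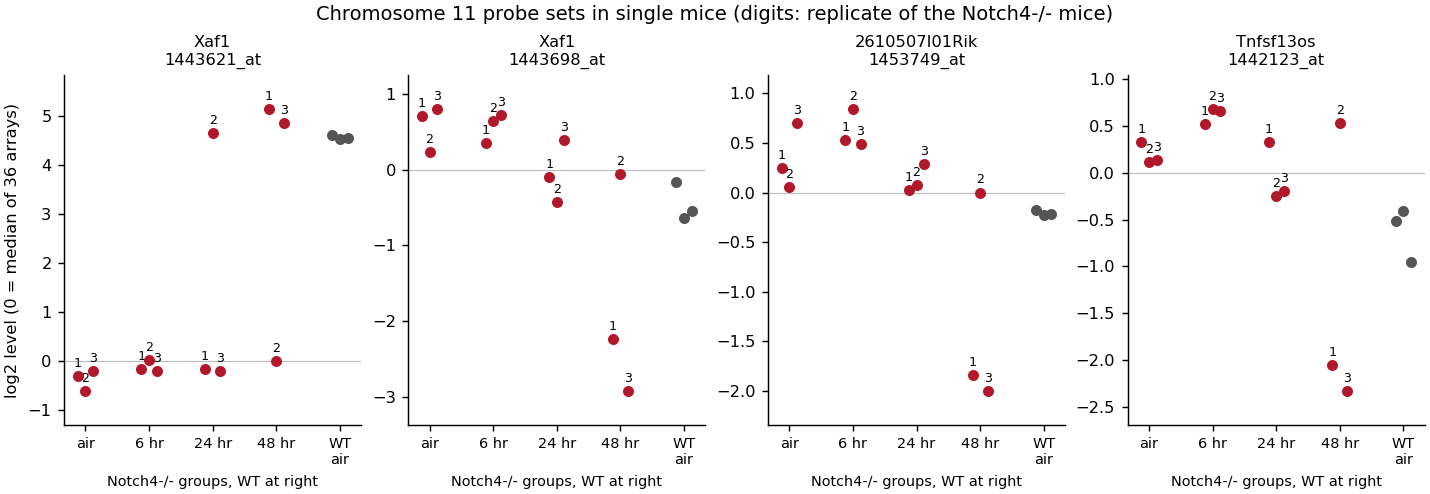
Log2 level (y axis) of 4 probe sets of chromosome 11 (2 of *Xaf1*, the second of *2610507I01Rik* and 1 of *Tnfsf13os*) in single mice of the Notch4-/- groups and of WT air (x axis). Digits number the Notch4-/- replicates. At 48 hr replicates 1 and 3 stood apart from replicate 2 in all 4 panels, and the first *Xaf1* probe set was also high in replicate 2 at 24 hr and in the WT mice.

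*Prg4*, lubricin of mesothelium and joints, also varied between mice. It stood at 1.23, 3.73 and 2.18 in ozone mice and -0.51, -0.58 and -1.39 in air mice, a change of 3.21 ± 0.85 (adjusted p = 0.047), and lost its call without any 1 of 5 mice, all but ozone replicate 1 (adjusted p of 0.075 to 0.24). At 6 hr it was at 1.01, -0.76 and 1.91, so 1 of 3 mice was as high as a 48 hr mouse. Of the cell type markers not named so far, those of alveolar type 2 cells had 2 of 15 called, *Il33* and *Sftpd* (0.27 ± 0.06), surfactant protein D. Further lists were those for alveolar type 1, club and goblet, ciliated, endothelial, smooth muscle, fibroblast, T, B, mast and erythroid cells, cardiac and skeletal muscle and fat. None had a member called against air with all 6 mice. Medians of these lists lay between -0.32 (endothelial) and 0.39 (fat). Without air replicates 1 and 2 the medians lay between -0.79 (erythroid) and 1.18 (fat).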

How the data were processed

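Affymetrix whole-genome mouse arrays were hybridised with left lung RNA, 1 array per mouse. The authors normalised the arrays by RMA in GeneSpring, and the deposited values are log2 levels from which every probe set's own median across the 36 arrays had been taken off. Brightness is thereby lost, so dim probe sets could not be filtered, and the number of arrays limits the precision. Of 45101 probe sets, 64 controls were left out. Per the platform annotation, 34945 probe sets had 1 gene symbol, 932 several and 9160 none, and 34741 were matched to RefSeq by gene ID. The probe set without a suffix letter before _at, and then the lowest number, stood for each gene.

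Group means were fitted over all 12 groups with limma 3.58.1 in R 4.3.3 (lmFit, eBayes), with Benjamini-Hochberg adjustment and a threshold of 0.05. Alternatives were the two-way ANOVA with Tukey's test of the study's methods, fewer arrays, array weights, a robust prior, further normalizations, a filter on the SD, other probe sets, the replicate number as a block and leaving out each mouse. Named genes were the Notch list, genes of the study's own text, the 15 largest rises and 15 largest falls whose mice did not overlap, up to 5 of each direction in the other comparisons, up to 6 called and 3 not called members of each list, and genes whose probe sets disagree. Of 943 genes in 48 lists, 863 were measured. The comparison, the genes and the lists were chosen with earlier results of these data known. The p-values of the main fit rest on the spread between mice within all 12 groups, not on that of the compared mice alone. The labels do not say whether mice shared a litter. Nor do they say whether same-numbered mice were exposed together, and replicate numbers were not taken as pairs. The limma fit was tested on simulated data. Promoter sequences are from RefSeq.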

Additional observations from a re-analysis of the deposited data

Results flagged for a closer look

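The response of *Psca* to 48 hr of ozone differed between genotypes by the test of the difference itself. It was 0.07 ± 0.15 in Notch4-/- mice and 1.60 ± 0.15 in WT mice, and the difference was -1.53 ± 0.21 (limma, adjusted p = 0.0032, 3 mice per group). All 3 WT ozone mice lay above all 3 WT air mice, while the Notch4-/- mice overlapped. The call held with each of the 12 mice left out in turn. It was lost when both Notch4-/- air replicates 1 and 2 were left out, with arrays of the 2 genotypes alone, and after a further quantile normalization.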

How the results depend on the processing

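Counts of called probe sets moved with the fit. Fits on the arrays of the compared genotypes or of the 6 mice alone and the Tukey test alter only the error. They leave each change as it is and say nothing about its direction. For ozone against air at 48 hr the 790 became 161 with arrays of Notch4-/- mice alone, 0 with the 6 arrays alone (3813 at an unadjusted p under 0.05), 36 by the two-way ANOVA and Tukey test of the methods, 2731 with array weights and 333 after a further quantile normalization. With 1 mouse left out it ranged from 216 to 873. The difference from the WT response gave 0 calls with arrays of the 2 genotypes alone (1382 at an unadjusted p under 0.05), 5 with array weights, 0 after quantile normalization (1675), 0 without Notch4-/- air replicates 1 and 2 together (3182), and 1 to 7 with 1 mouse left out. The difference from the Notch3-/- response gave 35 with array weights and 0 to 6 with 1 mouse left out. Against 24 hr, the 2197 became 287, 6 and 849 with arrays of Notch4-/- mice alone, the Tukey test and quantile normalization, and 444 to 3986 with 1 mouse left out. Against 6 hr, the 4030 became 1736, 339 and 6685 with arrays of Notch4-/- mice alone, the Tukey test and array weights, and 1974 to 3900 with 1 mouse left out. The cause was not tested. The fits with fewer arrays also have fewer residual degrees of freedom.

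Same-numbered mice did not deviate together (correlations 0.108, -0.304 and -0.416 for ozone and air), so the numbers were not taken as pairs. With 3 mice per group, such correlations cannot settle whether mice were paired. With the replicate block, ozone against air gave 887 calls, 48 against 24 hr 2454 and 48 against 6 hr 4368, and the differences from the WT and Notch3-/- responses gave 1 and 0. Of 99 named genes called against air, 97 stayed called with the block, 38 with arrays of Notch4-/- mice alone, 9 with the Tukey test, 53 after quantile normalization and 39 without air replicate 3. The block, the arrays of Notch4-/- mice alone and the Tukey test leave each change as it is, so they cannot turn a sign. No called gene among them changed sign after quantile normalization or without air replicate 3. Leaving out a mouse cannot turn a gene whose ozone and air mice do not overlap. Of these genes, 39 had other probe sets, 52 in all. Of the 52, 23 were called the same way and 27 kept the direction without a call. The other 2 had a change of the other sign, called in *Xaf1* (-2.32) and not called in *Ddc* (0.10). Depth has no counterpart in these files, since signal over background was removed by the centring.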

Other observations

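The *Xaf1* probe set that was higher is 1 of 58 that had ozone replicates 1 and 3 more than 1 log2 unit from the air mean on the same side and ozone replicate 2 within 0.5 of it. They were chosen after the values were seen and carry no test. Of the 50 with 1 gene symbol, 26% were on chromosome 11, where 7.8% of all such probe sets lie. Among those 13, which include *Xaf1*, 8 were lower in replicates 1 and 3. *Taf15*, an RNA-binding protein, was at -1.43, 0.26 and -1.84 in ozone mice and 0.34, -0.10 and 0.19 in air mice, and the second probe set of *Ndel1* at -1.56, 0.30 and -1.44 in ozone mice and 0.60, 0.18 and 1.06 in air mice. A further group within the 58 were 12 genes of the mitosis and DNA replication lists, such as *Cenpe*, a kinetochore motor, at 2.11, -0.04 and 1.78 in ozone mice and 0.38, -0.34 and -0.12 in air mice.

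Brown fat genes stood out in ozone replicate 2. *Ucp1* was at 0.20, 6.01 and 0.01 in ozone mice and -0.09, 0.09 and 0.08 in air mice, *Cidea*, a lipid droplet protein, at 0.01, 3.50 and -0.34 in ozone mice and 0.25, 0.53 and -0.35 in air mice, and *Elovl3* at 0.20, 3.38 and -0.17 in ozone mice and -0.07, 0.29 and 0.07 in air mice. Air replicates 1 and 2 had raised *Adipoq*, at 1.21 and 1.18, and *Retn*, at 0.92 and 1.24. Of 13 heat shock protein genes, 2 changed upward, with a median of -0.34, and none was called. Without air replicates 1 and 2 the median was 0.16. *Hspa1b*, an inducible HSP70, was at -0.97, -1.66 and -1.01 in ozone mice and 1.36, 1.09 and -1.95 in air mice, so air replicates 1 and 2 were high.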
